A study of Arabidopsis thaliana with 18 samples.

Results

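The genes that responded when the PLT4 transcription factor was activated were measured within a single transgenic line, with 3 arrays of seedlings treated with dexamethasone (dex) and 4 arrays of mock-treated seedlings. These 7 arrays were chosen by their titles from the 18 arrays of the series, and this is the only comparison in it with the same line on both sides. The dex group is Arabidopsis thaliana whole seedlings carrying 35S-PLT4-GR and given 10 µM dex for 6 h, and the mock group is whole seedlings of the same line given an equal amount of the solvent DMSO for 6 h. Both groups carry the fusion of PLT4 to the glucocorticoid receptor domain (GR) under the constitutive 35S promoter, so the fusion is made in cells that do not normally express PLT4. Seedlings were 4 days old when they were moved to liquid medium, with about 50 per flask, and were treated on the next day. Arrays from 10 dex-treated samples of 4 other lines, 35S-driven GR fusions of PLT1 (2 arrays), PLT3 (2), PLT5 (3) and PLT7 (3), were used to ask where the PLT4 seedlings differed from other induced seedlings. The labels call the arrays of a group biological replicates, and do not say whether a line descends from a single insertion event. They describe 3 additional flasks for mock but list 4 mock arrays, so the source of 1 of them is not given. No seedlings without a PLT fusion received dex, so responses to dex itself and to the fusion cannot be told apart.

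PLT4, better known as BABY BOOM (BBM), is an AP2-domain transcription factor of the PLETHORA/AINTEGUMENTA-LIKE (PLT/AIL) family. In roots the family keeps stem cells and dividing cells in an undifferentiated state, and ectopic BBM can start embryo development from seedling tissue. A GR fusion stays in the cytoplasm until a steroid such as dex binds it, after which it enters the nucleus.

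The values are log2 expression values, and a difference of 1 is a change of 2-fold. They lay close together within a group: correlations between arrays over all 21430 probe sets were 0.995 to 0.997 among dex arrays and 0.989 to 0.995 among mock arrays, and 0.965 to 0.975 between the groups. The median SD of a probe set was 0.0965 among dex arrays and 0.134 among mock arrays. The gap between 3' and 5' actin control probes, which widens when RNA is degraded, was 1.28 to 1.52 in dex and 1.08 to 1.64 in mock. For GAPDH it was 1.29 to 1.35 in dex and 1.18 to 1.26 in mock, so the groups did not overlap there, and the part of this in the results was not tested. Green tissue markers lay between 11.40 and 13.63 in the 7 arrays, and 4 of 5 root markers between 4.91 and 8.17. The fifth root marker, SMB, lay between 3.48 and 3.88, within the range of flower and pollen markers at 3.19 to 4.13. The arrays thus hold green tissue and root signal, as labelled whole seedlings would. Of 4 seed markers, CRA1 reached 8.64 and CRC 6.12 in mock, while OLEO1 and SESA4 were at most 4.51 in the 7 arrays. The part of seed remains was not tested. The number of arrays limits the precision, and the table gives no detection calls.

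Activation of PLT4 was accompanied by changes in a large share of the transcriptome. In limma's moderated two-sided test with Benjamini-Hochberg adjustment, 7314 of 21430 probe sets (34.1%) passed an adjusted p of 0.05, of which 3840 (17.9%) were higher and 3474 (16.2%) were lower in dex. Most changes were small. Changes of at least 2-fold were called for 523 probe sets higher (2.44%) and 610 lower (2.85%), of at least 4-fold for 47 higher and 56 lower, and of at least 8-fold for 13 higher and 1 lower. All dex values lay above all mock values for 4463 probe sets (20.8%) and below them for 4146 (19.3%). The median difference over all probe sets was -0.01. The direction of the 2-fold changes went with the level in mock. That level is itself part of each difference, so the counts by level are a description only. Among 6225 probe sets with a mock mean between 4 and 6, 196 rose and 88 fell by at least 2-fold, while among 892 with a mock mean of 10 or more, 8 rose and 52 fell. RMA compresses differences near the background, and of the 5181 probe sets with a mock mean under 4, 7 rose and 0 fell by at least 2-fold, where a fall has little room to be measured (limma, counts at the same adjusted p).

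BBM itself, the gene whose product was activated, was at 10.82, 10.67 and 10.78 in dex arrays, against 11.42, 11.41, 11.48 and 11.58 in mock arrays. All dex values lay below all mock values, and the difference was -0.72 ± 0.08 (SE, limma adjusted p = 9.16e-05), which is 1.64-fold lower in dex. The difference was not called when the spread was estimated over all 18 arrays (adjusted p = 0.0767). It was called when the array labelled PLT1 replicate 3, described below, was left out of that fit. The probe set cannot separate the transgene from the endogenous gene. Both groups stood above the other dex lines, in which BBM was between 4.62 and 7.51.

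Of the 8 family members, 1 rose, 2 fell including BBM, and 5 did not pass the test, with a list median of 0.05. Over all probe sets 17.9% were called higher and 16.2% lower, so the family was not called much more often than probe sets in general. AIL5 (PLT5), which acts with AIL6 and AIL7 in lateral root and organ formation, was at 6.86, 6.61 and 7.05 in dex, against 6.07, 6.36, 6.50 and 6.48 in mock, a difference of 0.49 ± 0.13 (SE, limma adjusted p = 0.0154). ANT (AINTEGUMENTA), which promotes growth of shoot organs, was at 4.95, 5.23 and 5.03 in dex, against 5.73, 5.24, 5.89 and 5.58 in mock, a difference of -0.54 ± 0.14 (adjusted p = 0.0139). The highest dex value and the lowest mock value of ANT nearly met. Neither call held without dex replicate 1 (adjusted p = 0.0542 for AIL5 and 0.0647 for ANT) or without dex replicate 3 (0.0778 and 0.0546). The remaining 5 were low in both groups. PLT1 and PLT2, the founding root members, were between 3.66 and 4.01 in dex and between 3.52 and 4.06 in mock, and AIL6 (PLT3) was between 4.48 and 4.79 in dex and between 4.59 and 4.76 in mock. AIL7 (PLT7) was between 3.64 and 3.75 in dex and between 3.40 and 3.65 in mock. AT1G72570, a member without a symbol, was between 3.33 and 3.63 in dex and between 3.25 and 3.41 in mock.

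Of 12 genes reported in the literature as BBM targets, 8 rose and 0 fell, beside 17.9% higher and 16.2% lower over all probe sets. Their median was 0.46 against -0.01 over all probe sets. The largest response was that of ADF9, an actin-depolymerizing factor. It was at 8.76, 8.79 and 9.02 in dex, against 5.20, 4.37, 4.71 and 4.72 in mock, a difference of 4.11 ± 0.17 (SE, 17.2-fold, limma adjusted p = 2.79e-07). YUC8, a flavin monooxygenase that makes auxin from indole-3-pyruvate, was at 9.86, 9.82 and 9.99 in dex, against 6.69, 6.81, 6.62 and 6.81 in mock, a difference of 3.16 ± 0.09 (8.93-fold, adjusted p = 2.99e-08). Neither gene's groups came near each other. TAA1, the aminotransferase that makes the substrate of the YUC enzymes, was at 7.66, 7.52 and 7.88 in dex, against 6.95, 6.79, 6.75 and 6.85 in mock, a difference of 0.85 ± 0.10. The AT-hook DNA-binding genes AHL20 and AHL15 differed by 0.66 ± 0.12 and 0.61 ± 0.10, with no overlap of the groups.

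The other 3 calls among these targets were less firm. YUC3, a second YUC enzyme, was at 6.65, 6.58 and 6.85 in dex, against 6.07, 5.86, 5.34 and 6.42 in mock, a difference of 0.77 ± 0.21 that was not called without dex replicate 3 (limma adjusted p = 0.0671). AHL19 and the MADS-box gene AGL15 differed by 0.32 ± 0.10 and 0.27 ± 0.09, and lost their calls in 8 and 9 of the alternatives run. Without dex replicate 3, or with the spread taken from all 18 arrays, 5 of the 12 were called. The embryo regulators LEC1, LEC2, FUS3 and ABI3, also reported BBM targets, did not pass the test. LEC1 was between 4.03 and 4.20 in dex and between 3.87 and 4.27 in mock, and the other three were between 3.47 and 3.75 in dex and between 3.45 and 4.04 in mock.

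**Figure D1:**
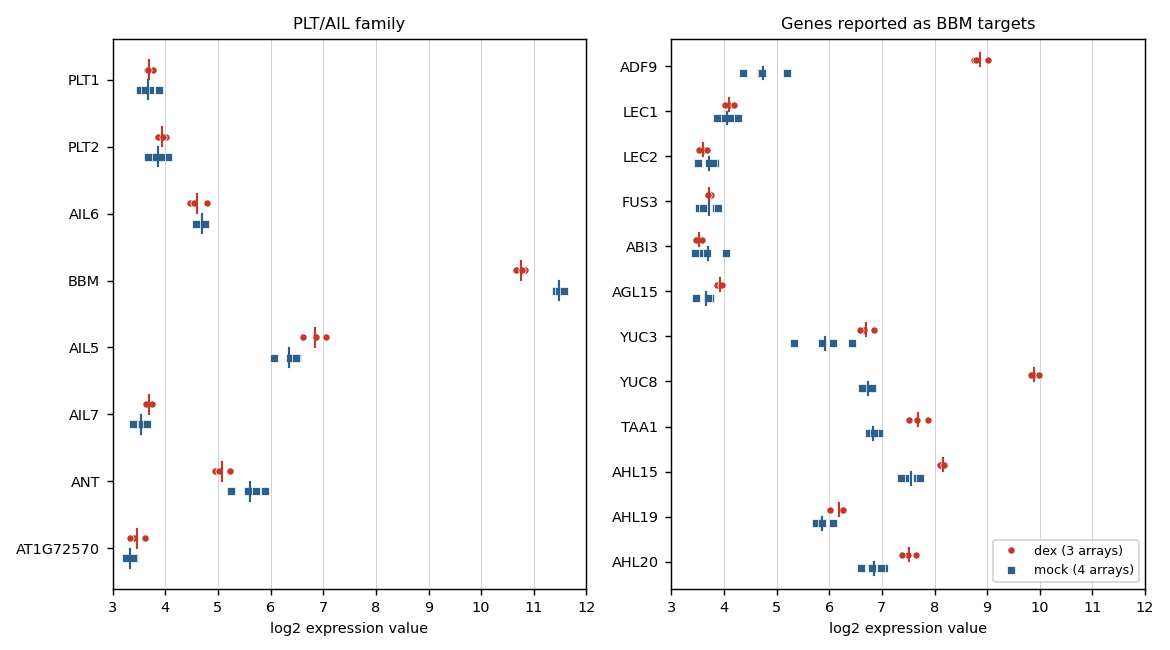
Log2 expression value of each array (horizontal axis) for the 8 PLT/AIL genes (left) and the 12 reported BBM targets (right), with dex arrays as circles above mock arrays as squares and vertical ticks at group means. BBM lies lower in dex at 10.67 to 10.82 against 11.41 to 11.58 in mock, and ADF9 and YUC8 show the widest gaps, with dex above mock.

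The 12 largest rises among genes with a symbol were ADF9 and YUC8 together with genes of several functions. CRF3, an AP2/ERF factor of the cytokinin response factor group, was at 8.13, 8.26 and 8.37 in dex, against 4.80, 4.47, 4.65 and 4.35 in mock, a difference of 3.68 ± 0.11 (SE, limma adjusted p = 6.72e-08). CHX16, of the cation/proton exchanger family, was at 8.68, 8.73 and 8.47 in dex, against 5.07, 5.00, 5.48 and 5.41 in mock, which is 10.5-fold higher in dex. GLIP7, a GDSL-type lipase, was at 7.67, 7.61 and 7.62 in dex, against 4.52, 4.46, 4.20 and 4.36 in mock, which is 9.49-fold higher. The rule that chose these genes required every dex value to lie above every mock value, so their wide gaps follow from the choice. CYP91A2, a cytochrome P450, averaged 8.81 ± 0.06 in dex (SD, n = 3 arrays) and 5.61 ± 0.27 in mock (SD, n = 4 arrays). ELIP2, a chlorophyll-binding early light-induced protein, differed by 3.01 ± 0.23. ELIP2 was at 6.85 in mock replicate 4 and at 7.62 to 7.99 in the other mock arrays, all below the dex values of 10.57 to 10.64. The serine carboxypeptidase-like gene scpl35 was 7.86-fold higher. MSL9, a mechanosensitive ion channel of the plasma membrane in root cells, was 7.13-fold higher, and ACO1, an enzyme of the last step of ethylene synthesis, was 6.95-fold higher. IQD6, of the calmodulin-binding IQD family, was 6.58-fold higher. CYP707A2, which breaks down abscisic acid, was at 6.72, 6.70 and 6.77 in dex, against 3.94, 4.40, 4.30 and 4.39 in mock.

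Genes without a symbol in the gene table were among the strongest responders. AT1G56680 had the widest difference of all probe sets, at 9.94, 9.65 and 10.16 in dex, against 4.71, 4.47, 4.11 and 5.06 in mock, which is 40.3-fold higher in dex (limma adjusted p = 2.50e-07). AT5G59130, AT1G33790, AT2G34020, AT3G58060 and AT1G53070 were also more than 8-fold higher, with differences of 3.94, 3.67, 3.67, 3.53 and 3.28. The only fall of more than 8-fold was that of AT5G16030, with a dex mean of 6.51 ± 0.11 (SD, n = 3 arrays) and a mock mean of 10.05 ± 0.14 (SD, n = 4 arrays), which is 11.6-fold lower in dex.

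The 12 largest falls held genes of cell wall growth, water and nutrient transport, and surface or barrier formation. GASA6, of a gibberellin-regulated peptide family, was at 8.06, 7.79 and 7.89 in dex, against 10.69, 10.58, 10.59 and 11.02 in mock, which is 6.99-fold lower in dex (-2.81 ± 0.12, SE, limma adjusted p = 3.47e-07). XTH6 and XTH17, xyloglucan-modifying enzymes that remodel growing walls, were 6.52-fold and 5.71-fold lower, and BGAL4, a beta-galactosidase, was 5.56-fold lower. PIP2A, a plasma membrane water channel, was at 9.48, 9.41 and 9.06 in dex, against 12.03, 12.03, 11.89 and 11.95 in mock. The sulfate transporter AST91 was 5.68-fold lower. NRT1.5, which loads nitrate into the xylem, was at 5.99, 6.09 and 5.43 in dex, against 8.43, 8.14, 7.53 and 9.21 in mock. PER64, a peroxidase of the Casparian strip, and BDG1, which is needed for a normal cuticle, were 5.22-fold and 4.95-fold lower. AOP2, which modifies glucosinolate side chains, was 5.61-fold lower, and SQE6, of the squalene epoxidase family, was 4.86-fold lower. CRA1, a seed storage globulin, was the least even of the 12, at 5.32, 5.94 and 4.54 in dex, against 8.54, 7.48, 6.11 and 8.64 in mock.

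**Figure D2:**
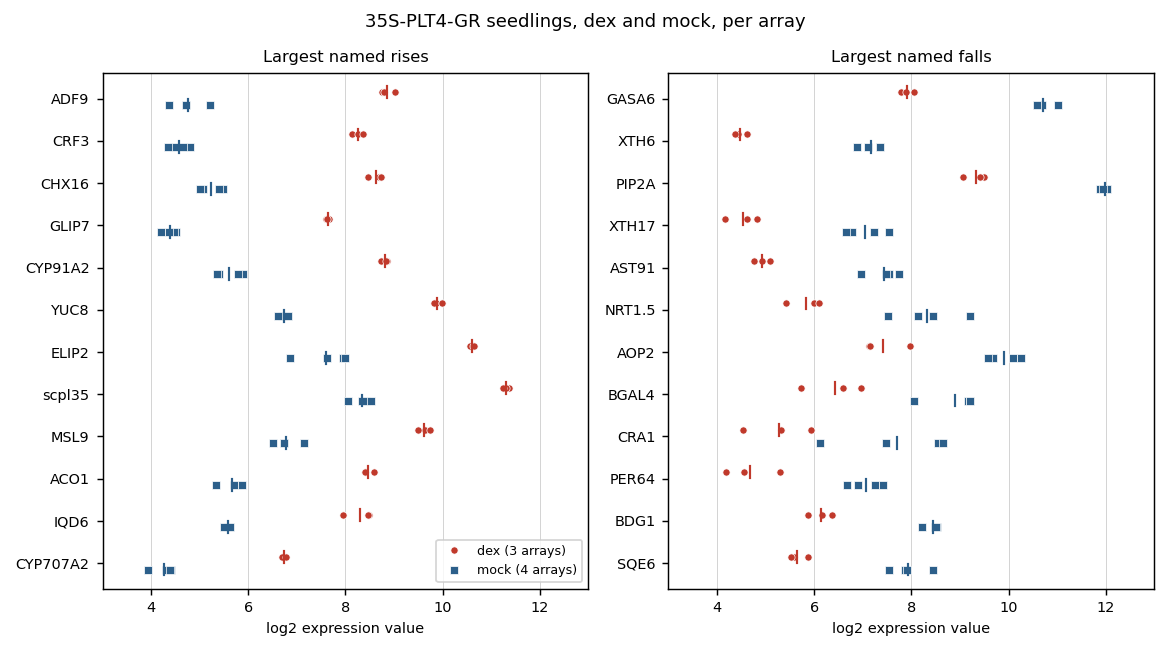
Log2 expression value of each array (horizontal axis) for the 12 largest named rises (left) and the 12 largest named falls (right), with dex arrays as circles above mock arrays as squares and vertical ticks at group means. By the rule that chose them no dex value overlaps a mock value, and the widest gap is that of ADF9, whose dex arrays lie between 8.76 and 9.02 and whose mock arrays lie between 4.37 and 5.20.

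Gene lists by function, set beside 17.9% higher and 16.2% lower over all probe sets, differed widely in their counts. Ribosome biogenesis, DNA replication and mitosis had called members on the higher side only. Casparian strip, suberin, xylem and aquaporin lists had them on the lower side only. These lists were chosen with earlier results of these data known, so the counts are descriptions.

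**Figure D3:**
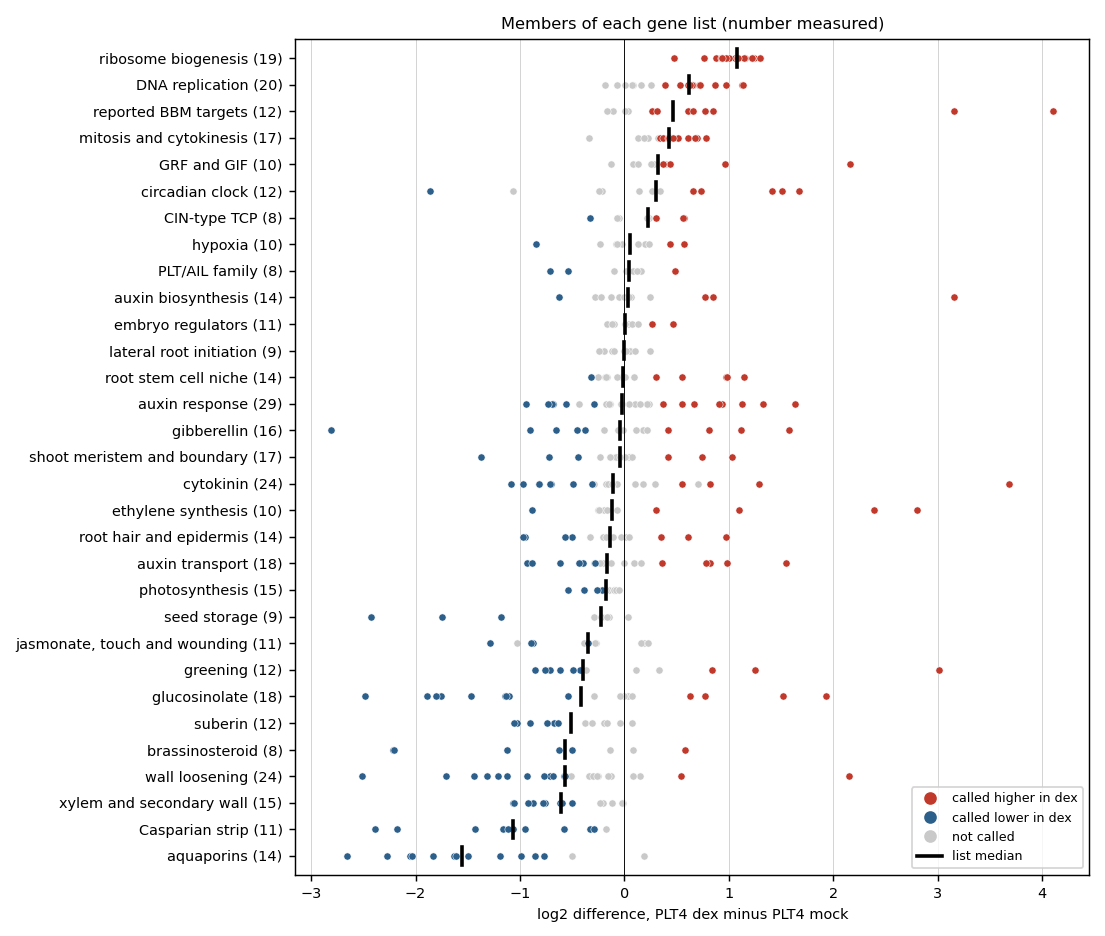
Log2 difference, PLT4 dex minus PLT4 mock (horizontal axis), of each measured member of 31 gene lists ordered by their medians, with the number measured in brackets. Points are coloured by whether the member was called higher, called lower or not called, and the black ticks are list medians, between 1.08 for ribosome biogenesis and -1.55 for aquaporins.

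All 19 measured members of the ribosome biogenesis list rose, between 0.48 and 1.29, with a median of 1.08. The list holds factors that modify, cut and assemble ribosomal RNA in the nucleolus. FIB2 (fibrillarin), the methyltransferase of box C/D particles, was at 11.23, 11.34 and 11.21 in dex, against 10.03, 9.98, 10.08 and 9.77 in mock, a difference of 1.29 ± 0.09 (SE, limma adjusted p = 5.72e-06). NAP57 (dyskerin), the pseudouridine synthase of box H/ACA particles, was at 11.55, 11.57 and 11.42 in dex, against 10.31, 10.37, 10.33 and 10.09 in mock. Dex values of both genes lay above all mock values and varied little. AT1G52930 and AT3G15460, listed members without a symbol, differed by 1.29 ± 0.14 and 1.23 ± 0.11. The count of 19 was the same in every alternative fit run.

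Genes of DNA replication rose in 13 of 20 cases and fell in 0, with a median of 0.62. RNR1 and RNR2A, the large and small subunits of ribonucleotide reductase, which makes the building blocks of DNA, each differed by 1.13 (± 0.09 and ± 0.10, SE). RNR1 averaged 10.21 ± 0.10 in dex (SD, n = 3 arrays) and 9.08 ± 0.13 in mock (SD, n = 4 arrays), with no overlap. All 5 measured subunits of the MCM helicase, which unwinds DNA at replication origins, rose, with PRL (MCM7) at 8.26, 8.19 and 8.36 in dex, against 7.24, 7.06, 7.51 and 7.36 in mock. MCM3 differed by 0.87 ± 0.11. The 3 D-type cyclins on the list, which act upstream at entry into the cycle, did not pass the test and differed by -0.18 to 0.01.

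Genes of mitosis and cytokinesis rose in 12 of 17 cases and fell in 0, with a median of 0.42, smaller than the median for replication. CYCB1;1, a cyclin made before and during mitosis, was at 6.12, 6.03 and 6.22 in dex, against 5.23, 5.19, 5.60 and 5.34 in mock, a difference of 0.78 ± 0.11 (SE). PLE and HIK, a microtubule-bundling protein and a kinesin needed to build the new cell plate, differed by 0.70 ± 0.12 and 0.68 ± 0.15. CYCB1;3 differed by 0.68 ± 0.10. The growth-regulating factors and their co-activators (GRF and GIF), which sustain cell proliferation in young organs, had 4 of 10 higher and 0 lower. GIF1 (ANGUSTIFOLIA3) was at 7.67, 7.56 and 7.68 in dex, against 5.20, 5.76, 5.48 and 5.48 in mock, a difference of 2.16 ± 0.12 (limma adjusted p = 1.42e-06). GRF2 was at 7.75, 7.83 and 7.88 in dex, against 6.81, 6.97, 6.69 and 7.00 in mock. GRF8 and GIF3 differed by 0.44 ± 0.10 and 0.37 ± 0.11, and the call for GIF3 was lost without dex replicate 1 (adjusted p = 0.0955), dex replicate 2 (0.0802) or mock replicate 2 (0.0531).

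The Casparian strip, a lignin band that seals the root endodermis, had 10 of 11 listed genes lower and 0 higher, with a median of -1.06. PER64 was at 4.55, 5.30 and 4.18 in dex, against 7.25, 6.90, 6.68 and 7.41 in mock, a difference of -2.38 ± 0.25 (SE, limma adjusted p = 5.44e-05). CASP1, a membrane scaffold of the strip, was at 5.60, 6.34 and 5.31 in dex, against 8.15, 7.79, 7.61 and 8.17 in mock, a difference of -2.18 ± 0.22. The dex values of both genes varied more than those of most genes described above, yet stayed below all mock values. ESB1, a dirigent-domain protein that places the lignin, was at 6.39, 6.89 and 5.97 in dex, against 8.14, 7.59, 7.51 and 8.16 in mock. All 5 CASP genes fell, CASP2 by 1.16 on the log2 scale. MYB36, the factor that activates CASP genes, was the listed gene that did not pass (named after its values were seen), at 4.17, 4.36 and 4.37 in dex, against 4.25, 4.54, 4.80 and 4.32 in mock. Fewer cells of a type and less RNA per cell cannot be told apart in whole seedlings.

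The root markers are not independent of the lists, since CASP1 is a Casparian strip gene and PRP3 is on the root hair list below. Of 5 root markers, CASP1 and the root hair wall protein PRP3 were lower and 0 were higher. The log2 of the summed level of the 5 was 8.22 to 8.65 in dex and 8.92 to 9.33 in mock. CASP1 was the highest of the 5 in every mock array, so it weighs most in that sum. PIN2, an auxin exporter of the root tip, differed by 0.00 ± 0.13 (SE), EXPA7 by -0.33 ± 0.14 and the root cap factor SMB by -0.16 ± 0.09, and none of these was called. EXPA7 was called lower without mock replicate 4 (limma adjusted p = 0.0362) or dex replicate 2 (0.0209), which gave 3 root markers lower. The part of root tissue content in these results was not tested.

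Suberin genes, which make the waxy layer of older endodermis, had 6 of 12 lower and 0 higher, with a median of -0.51. FAR4 and FAR1, which make the fatty alcohols of suberin, differed by -1.06 ± 0.13 and -1.03 ± 0.18 (SE). FAR1 was at 8.97, 8.29 and 8.76 in dex, against 9.73, 9.65, 9.37 and 10.07 in mock. ASFT, which adds ferulate to suberin, and KCS20, a fatty acid elongase, differed by -0.90 ± 0.16 and -0.74 ± 0.09. CYP86A1, the fatty acid hydroxylase of root suberin, did not pass, at 7.62, 7.19 and 7.18 in dex, against 7.36, 7.46, 7.40 and 6.80 in mock.

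Xylem and secondary wall genes had 10 of 15 lower and 0 higher, with a median of -0.61. All 3 cellulose synthases of the secondary wall fell, with CESA4 at 4.97, 4.94 and 4.70 in dex, against 5.97, 5.77, 5.76 and 6.23 in mock. FRA8, an enzyme of xylan synthesis, was at 4.35, 4.39 and 4.22 in dex, against 5.56, 5.24, 5.23 and 5.48 in mock. XCP2, a protease of dying xylem cells, differed by -0.92 ± 0.10 (SE) and LAC4, a laccase that polymerises lignin, by -0.88 ± 0.10. None of the groups of these genes, which were named for the largest called changes on the list, overlapped.

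Aquaporins, the water channels of the plasma membrane (PIP) and the vacuole (TIP), had the lowest median of all lists at -1.55, with 12 of 14 lower and 0 higher. PIP2A differed by -2.65 ± 0.11 (SE, limma adjusted p = 2.79e-07). PIP1A was at 9.18, 9.49 and 8.89 in dex, against 11.51, 11.43, 11.16 and 11.72 in mock. PIP2E averaged 9.27 ± 0.27 in dex (SD, n = 3 arrays) and 11.32 ± 0.06 in mock (SD, n = 4 arrays). TIP1;1, of the vacuole membrane, was at 9.23, 9.32 and 9.14 in dex, against 11.32, 11.27, 11.18 and 11.31 in mock. The mock values of PIP2A, PIP2E and TIP1;1 lay close together, and all dex values were far below them. In all, 8 of 9 PIP genes and 4 of 5 TIP genes fell. The 2 that did not pass (named after their values were seen) were PIP2;5, at 6.47, 6.00 and 6.44 in dex, against 6.13, 6.28, 5.77 and 6.29 in mock, and TIP2;3, at 4.27 to 4.36 in dex and 4.12 to 5.68 in mock.

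**Figure D4:**
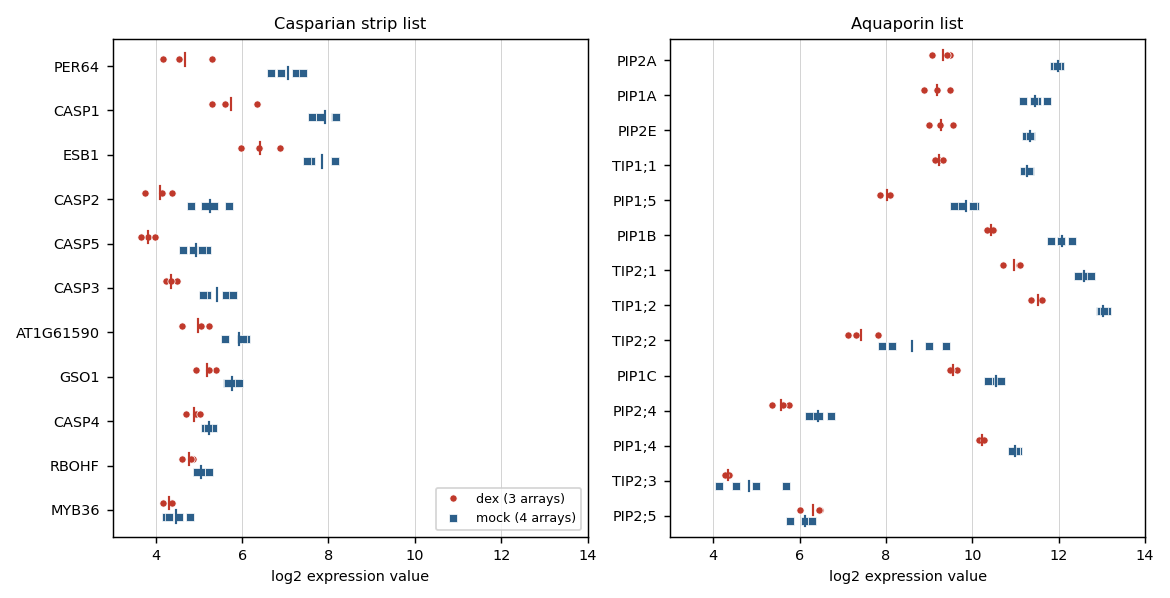
Log2 expression value of each array (horizontal axis) for the 11 measured genes of the Casparian strip list (left) and the 14 measured aquaporins (right), with dex arrays as circles above mock arrays as squares and vertical ticks at group means. The groups overlap for MYB36, TIP2;3 and PIP2;5, which were not called.

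Wall-loosening enzymes had 12 of 24 lower and 2 higher, with a median of -0.57. Expansins, which loosen walls without cutting them, had 7 of 12 lower and 1 higher, and XTH enzymes had 5 of 12 lower and 1 higher. XTH17 was at 4.62, 4.83 and 4.16 in dex, against 7.53, 6.77, 6.65 and 7.24 in mock. EXPB1 differed by -1.71 ± 0.21 (SE), and EXPA6 was at 8.49, 8.38 and 8.28 in dex, against 9.76, 9.81, 9.87 and 9.85 in mock. XTH9 moved the opposite way, at 11.88, 11.85 and 12.01 in dex, against 9.68, 9.63, 9.90 and 9.85 in mock, a difference of 2.15 ± 0.09 (limma adjusted p = 3.73e-07).

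Auxin genes changed in both directions. Among 14 genes of auxin biosynthesis 3 rose, the reported targets YUC8, TAA1 and YUC3, and 1 fell. That was TAR2, a TAA1-related aminotransferase, at 4.75, 4.89 and 4.75 in dex, against 5.33, 5.60, 5.63 and 5.12 in mock. The other 9 YUC genes did not pass, and the list median was 0.03. Of 18 auxin transport genes 5 rose and 6 fell. The importers, which carry auxin into cells, differed in direction. LAX2 was at 6.84, 6.77 and 6.81 in dex, against 5.90, 5.54, 5.86 and 5.99 in mock. AUX1 was at 8.93, 8.91 and 8.86 in dex, against 9.89, 9.83, 9.69 and 9.93 in mock, and LAX3 was at 7.25, 7.43 and 7.26 in dex, against 8.25, 8.24, 8.02 and 8.27 in mock.

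Auxin response genes, the Aux/IAA repressors and GH3 conjugating enzymes that auxin itself induces, had 8 of 29 higher and 7 lower, with a median of -0.02. IAA30 was at 6.26, 6.57 and 6.42 in dex, against 4.97, 4.66, 4.80 and 4.70 in mock, a difference of 1.63 ± 0.11 (SE, limma adjusted p = 2.98e-06). IAA27 differed by 1.33 ± 0.09 and GH3.3 by 1.12 ± 0.11. IAA6 differed by -0.94 ± 0.13, at 5.02, 5.00 and 4.78 in dex, against 6.16, 5.69, 5.64 and 6.00 in mock. Of 9 genes of lateral root initiation, which lie downstream of auxin in the pericycle, 0 were called, while LRP1 and ARF19 had the widest differences at 0.24 ± 0.10 and -0.24 ± 0.12. LRP1 passed without mock replicate 3 (adjusted p = 0.0423).

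Cytokinin genes divided by class. The type-A response regulators, which cytokinin induces and which dampen its signal, had 7 of 9 lower and 0 higher, with a median of -0.70. ARR7 was at 5.58, 5.57 and 5.36 in dex, against 6.58, 6.86, 6.29 and 6.66 in mock, a difference of -1.09 ± 0.13 (SE, limma adjusted p = 0.000112), and ARR5 differed by -0.97 ± 0.20. The cytokinin response factors, AP2/ERF proteins like PLT4 itself, had 4 of 5 higher and 0 lower. Beside CRF3, CRF5 was at 6.55, 6.55 and 6.38 in dex, against 5.38, 5.33, 5.11 and 5.01 in mock. Cytokinin oxidases, which degrade the hormone, had 0 of 6 called, and the IPT enzymes, which make it, had 1 of 4 lower.

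Gibberellin genes had 4 of 16 higher and 5 lower. GA3, the ent-kaurene oxidase of an early step, averaged 9.58 ± 0.20 in dex (SD, n = 3 arrays) and 8.01 ± 0.08 in mock (SD, n = 4 arrays), a difference of 1.58 ± 0.10 (SE, limma adjusted p = 3.08e-06). GA2OX6, which inactivates gibberellin, differed by -0.91 ± 0.16. The gibberellin-regulated peptide genes split, with GASA1 higher by 1.12 ± 0.15 and GASA6 lower. Brassinosteroid genes had 1 of 8 higher and 5 lower. All 3 BEE genes, growth-promoting factors that brassinosteroid induces, fell. BEE1 was at 4.87, 5.03 and 4.50 in dex, against 7.18, 7.04, 6.87 and 6.98 in mock, BEE2 was at 6.38, 6.46 and 6.01 in dex, against 8.46, 8.51, 8.57 and 8.41 in mock, and BEE3 differed by -1.12 ± 0.13. ROT3, a cytochrome P450 of brassinosteroid synthesis, differed by -0.63 ± 0.13.

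Ethylene synthesis genes had 4 of 10 higher and 1 lower. ACO1 was at 8.41, 8.41 and 8.59 in dex, against 5.76, 5.71, 5.87 and 5.34 in mock (2.80 ± 0.12, SE). AT1G12010, listed without a symbol, was at 7.82, 7.55 and 7.61 in dex, against 5.43, 5.13, 5.37 and 5.16 in mock. ACS4, which makes the precursor ACC, differed by 1.10 ± 0.14. ACO4, a further ACC oxidase, moved the opposite way by -0.88 ± 0.10, at 10.84, 10.88 and 10.58 in dex, against 11.62, 11.58, 11.62 and 11.78 in mock.

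The root stem cell niche list had 5 of 14 higher and 1 lower. RGF3, a peptide that maintains root stem cells, was at 4.86, 4.41 and 4.83 in dex, against 3.58, 3.93, 3.15 and 3.56 in mock, a difference of 1.15 ± 0.17 (SE, limma adjusted p = 0.000531). MP (MONOPTEROS), an auxin response factor of embryonic root formation, differed by 0.98 ± 0.14. SCR, which specifies endodermis and quiescent centre, was at 8.80, 8.84 and 8.72 in dex, against 7.85, 7.80, 7.97 and 7.64 in mock, and SHR, which acts upstream of SCR, differed by 0.55 ± 0.11. Without mock replicate 3 the number lower was 3, and without mock replicate 1 or dex replicate 1 it was 0. The 4 named members that rose were called under every alternative that kept them.

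Root hair and epidermis genes had 3 of 14 higher and 4 lower. WER, which sets the hairless cell fate, differed by 0.61 ± 0.10 (SE). CPC, which moves between cells to promote hair fate, was at 5.66, 5.52 and 5.75 in dex, against 4.74, 5.06, 4.83 and 4.07 in mock. The hair wall genes PRP3 and EXPA18 differed by -0.97 ± 0.12 and -0.95 ± 0.16.

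Shoot meristem and boundary genes had 3 of 17 higher and 3 lower, shares near those of all probe sets. PHB, a factor of the upper leaf side, was at 8.08, 8.04 and 8.07 in dex, against 7.06, 6.98, 7.13 and 6.94 in mock, a difference of 1.03 ± 0.08 (SE, limma adjusted p = 8.54e-06). CUC2, an organ boundary factor, differed by 0.75 ± 0.13. CLV1, the receptor kinase that limits stem cell number, was at 6.27, 6.47 and 6.12 in dex, against 7.47, 7.79, 8.02 and 7.38 in mock, and AS1, a leaf factor, differed by -0.72 ± 0.10. CIN-type TCP factors, which end cell division in leaves, had 3 of 8 higher and 1 lower. TCP3 and TCP4 differed by 0.57 ± 0.09 and 0.56 ± 0.10. TCP17 differed by 0.30 ± 0.10 and TCP13 by -0.33 ± 0.10, and both calls were lost with single arrays left out. For TCP17 these were dex replicates 1 and 3 and mock replicates 1 and 3 (limma adjusted p between 0.0665 and 0.201), and for TCP13 dex replicates 1 and 3 and mock replicate 2 (between 0.0560 and 0.101).

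Embryo regulators beyond the LEC genes added 1 call. AGL18, a MADS-box relative of AGL15, was at 6.87, 6.69 and 6.94 in dex, against 6.55, 6.36, 6.40 and 6.19 in mock, a difference of 0.46 ± 0.10 (SE, limma adjusted p = 0.0056). With AGL15, whose call was not firm, 2 of 11 were higher and 0 lower. The share higher was near the 17.9% of all probe sets. WOX9, an embryo patterning homeobox gene, was not called at 0.13 ± 0.11. Seed storage genes had 3 of 9 lower and 0 higher. The number lower was 1 with trend and robust variance, where CRA1 (limma adjusted p = 0.0612) and OLEO2 (0.121) were not called. OLEO2, an oil body protein, was at 4.62, 4.80 and 4.42 in dex, against 7.07, 6.05, 4.82 and 7.52 in mock (-1.75 ± 0.51), and its call was lost without any 1 of the 3 dex arrays or without mock replicate 1 (adjusted p between 0.0519 and 0.0793). CRC, a seed globulin, differed by -1.18 ± 0.30. The mock arrays differed much among themselves in these genes, with mock replicate 3 lowest in all 3. The log2 of the summed level of 4 seed markers was 6.04 to 6.71 in dex and 6.90 to 8.92 in mock, 2 of the 4 were lower, and the part of seed remains in the samples was not tested.

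Glucosinolate genes changed in both directions. Of 18 listed genes 4 rose and 9 fell. AOP2, of methionine-derived glucosinolates, was at 7.12, 7.98 and 7.14 in dex, against 9.68, 10.09, 10.26 and 9.57 in mock. CYP83A1, a P450 of their core pathway, was at 7.69, 8.20 and 7.41 in dex, against 9.85, 9.88, 9.57 and 9.32 in mock, and BCAT4, of their chain elongation, differed by -1.80 ± 0.24 (SE). MYB34, an activator of tryptophan-derived glucosinolates, was at 9.43, 9.25 and 9.57 in dex, against 7.56, 7.54, 7.45 and 7.41 in mock, a difference of 1.93 ± 0.09 (limma adjusted p = 6.74e-07). Dex replicate 2 had the highest dex value of AOP2 and CYP83A1, still below all mock values.

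Genes of jasmonate, touch and wounding had 0 of 11 higher and 4 lower. TCH4, a touch-induced wall enzyme, was at 7.27, 7.23 and 7.48 in dex, against 8.92, 8.64, 8.37 and 8.54 in mock. AOS, of jasmonate synthesis, and the calmodulin-like TCH2 differed by -0.89 ± 0.11 and -0.87 ± 0.13 (SE). The call for TCH3 at -0.35 ± 0.11 was lost without any 1 of the dex arrays or of mock replicates 1, 3 and 4 (limma adjusted p between 0.0533 and 0.121). Hypoxia genes had 2 of 10 higher and 1 lower, a share near that of all probe sets. HB1, a haemoglobin, was at 6.63, 6.88 and 6.59 in dex, against 7.59, 7.96, 7.51 and 7.11 in mock. PCO1, a cysteine oxidase of oxygen sensing, and HRE1, a hypoxia-induced ERF, differed by 0.57 ± 0.16 and 0.43 ± 0.11, and PCO1 was not called without dex replicate 1 (adjusted p = 0.0822) or 3 (0.0747). ADH1, the alcohol dehydrogenase often used as a hypoxia marker, was not called at -0.24 ± 0.19.

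Greening genes had 3 of 12 higher and 6 lower. Beside ELIP2, PORB and PORA, enzymes that reduce protochlorophyllide, differed by 1.25 ± 0.18 and 0.84 ± 0.21 (SE). PORB was at 12.36, 12.21 and 12.32 in dex, against 11.01, 10.65, 10.94 and 11.57 in mock. GLK1, an activator of chloroplast genes, was at 6.97, 6.89 and 6.86 in dex, against 7.72, 7.66, 8.06 and 7.62 in mock. Photosynthesis genes had 0 of 15 higher and 4 lower, with a median of -0.18. GAPB and PRK, enzymes of the Calvin cycle, differed by -0.54 ± 0.09 and -0.39 ± 0.09, RCA by -0.26 ± 0.07 and PSBO1 by -0.22 ± 0.07. None of the 7 antenna protein genes was called. The number lower was 2 without dex replicate 1 or 3. The call for RCA was lost without dex replicate 1 (limma adjusted p = 0.0539) or dex replicate 3 (0.0838), and that for PSBO1 was lost without any 1 of the dex arrays or mock replicates 1, 2 and 3 (adjusted p = 0.0649 to 0.105). The green tissue markers had 2 of 4 lower (GAPB and RCA), and the log2 of their summed level was 14.99 to 15.08 in dex and 15.25 to 15.29 in mock. LHCB3 differed by -0.20 ± 0.08 and LHCB5 by -0.10 ± 0.08.

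Clock genes had 5 of 12 higher and 1 lower, and the mock arrays were uneven for them. CCA1, a repressor that peaks in the morning, was at 5.02, 5.19 and 5.28 in dex, against 7.37, 7.62, 7.22 and 5.88 in mock, a difference of -1.86 ± 0.34 (SE, limma adjusted p = 0.00163). PRR5 and PRR3, later-phased members of the pseudo-response regulator family, differed by 1.51 ± 0.29 and 1.67 ± 0.34. PRR3 was at 7.06, 7.03 and 7.32 in dex, against 5.41, 4.54, 5.48 and 6.44 in mock. GRP7, an RNA-binding protein under clock control, was at 12.64, 12.72 and 12.62 in dex, against 11.28, 10.89, 11.01 and 11.80 in mock. In all 4 genes mock replicate 4 was the mock array nearest to the dex arrays. Without it the differences were -2.24 for CCA1, 1.80 for PRR5, 1.99 for PRR3 and 1.60 for GRP7, each called, and the number of clock genes lower was 3. Harvest times were kept close together by design, though the source of 1 mock array is not given. The part of time of day in these values was not tested.

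Against the other 4 dex lines, PLT4 seedlings differed in 3138 of 21430 probe sets (14.6%), of which 1757 (8.20%) were higher and 1381 (6.44%) were lower in PLT4. This comparison sets PLT4 dex arrays against the mean of the PLT1, PLT3, PLT5 and PLT7 dex groups, with no mock array (limma, Benjamini-Hochberg). The differences reached 2-fold for 96 probe sets higher and 70 lower. All groups received dex, so a response to dex alone does not enter, but the lines differ in transgene insertion as well as in the PLT protein. An array labelled PLT1 replicate 3 carried the signal of another PLT gene than its label and was left out, and with it 1025 probe sets were called (631 higher, 394 lower). PLT5 replicate 3, with PLT2 at 6.07 against 3.95 and 4.06 in the other PLT5 arrays, and PLT7 replicate 1, with AIL6 at 6.49 against 4.40 and 4.63 in the other PLT7 arrays, were kept, and 2756 probe sets were called without both. The comparison shares the PLT4 dex arrays with the one against mock, so no overlap between them is given as a result.

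Genes with the largest changes between PLT4 dex and PLT4 mock were mostly within the range of the other lines in PLT4 dex. CHX16 and AT3G58060 were exceptions. AT3G58060 was at 8.48, 8.85 and 8.10 in PLT4 dex and between 5.11 and 7.42 in the other lines, a difference of 2.16 ± 0.21 (SE). CHX16 was at 8.47 to 8.73 in PLT4 dex and between 7.77 and 8.43 in the other lines, a difference of 0.59 ± 0.12. ADF9 in PLT4 dex arrays (8.76 to 9.02) lay between the values of PLT1 (10.63 and 10.68) and PLT7 (9.15 to 9.40) above it and those of PLT5 (6.63 to 7.15) and PLT3 (5.12 and 5.37) below it. YUC8 did not differ from the mean of the other lines by the test (0.12 ± 0.08, SE, limma adjusted p = 0.384), and neither did MSL9, ACO1, IQD6 and CYP707A2, with differences of 0.14, 0.01, 0.21 and 0.07. YUC3 was lower in PLT4 than that mean by -1.41 ± 0.10 (adjusted p = 4.04e-07), with the PLT1 line at 11.27 and 11.25. PLT4 dex arrays (6.58 to 6.85) lay with PLT3 (6.62 and 6.72) and PLT5 (6.45 to 6.89), and below PLT7 (7.65 to 8.07). RGF3 differed by -1.58 ± 0.17, again with PLT1 highest, at 8.89 and 9.27. It was at 4.41 to 4.86 in PLT4 dex and at 3.72, 4.12 and 4.71 in PLT5. PLT3 (5.36 and 5.79) and PLT7 (6.10 to 6.38) lay above PLT4. GLIP7 was higher in PLT4 by 1.36 ± 0.12, with values in the other lines of up to 8.11, and CRF3 by 0.71 ± 0.09. For CRF3 the PLT1 arrays (8.54 and 8.62) lay above the PLT4 dex arrays (8.13 to 8.37). The PLT3, PLT5 and PLT7 arrays of CRF3 (6.79 to 7.42) lay below them.

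Genes highest in PLT4 against the other lines were in part as high in PLT4 mock arrays. GER3, a germin-like protein, was at 12.45, 12.62 and 12.10 in PLT4 dex and averaged 10.07 in the other lines, where it lay between 7.81 and 12.07, a difference of 2.32 ± 0.21 (SE, limma adjusted p = 2.51e-06). In PLT4 mock it was between 11.45 and 12.27. CYP86A1 was at 7.62, 7.19 and 7.18 in PLT4 dex and between 4.04 and 6.24 in the other lines, a difference of 2.26 ± 0.16, while PLT4 mock arrays were between 6.80 and 7.46. The small heat shock genes HSP17.6A and HSP17.4 differed by 2.03 ± 0.30 and 1.80 ± 0.23, and PLT4 mock arrays again lay with PLT4 dex arrays, at 6.30 to 8.09 and 7.14 to 7.98. ST2A, a sulfotransferase acting on a jasmonate derivative, was above both, at 7.75, 7.82 and 7.65 in PLT4 dex, between 4.76 and 6.91 in the other lines, and at 6.08 to 6.73 in PLT4 mock. UGT74E2, a glucosyltransferase of the auxin precursor indole-3-butyric acid, differed by 1.77 ± 0.19.

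Among the genes lowest in PLT4 against the other lines, AGP30, an arabinogalactan protein of roots, was at 4.78, 5.18 and 4.59 in PLT4 dex and between 6.54 and 7.50 in the other lines, a difference of -2.22 ± 0.12 (SE, limma adjusted p = 3.89e-08). Its mock values were uneven, at 7.21, 5.61, 4.99 and 8.46. ROP9, a small GTPase, was at 7.24, 6.81 and 7.62 in PLT4 dex and between 7.95 and 9.49 in the other lines, while it was above PLT4 mock (5.54 to 6.10) by 1.53 ± 0.19. RGL3, a DELLA repressor of gibberellin responses, was likewise lower than the mean of the other lines (-1.18 ± 0.06) and higher than in mock (0.71 ± 0.11). RGL3 was at 5.02 to 5.24 in PLT4 dex, close below PLT5 at 5.33 to 5.41. The PLT1, PLT3 and PLT7 arrays lay between 6.29 and 7.29. AIR1, a gene first found as auxin-induced in root cultures, sks15, of a multicopper oxidase-like family, and WR3, a partner of nitrate transporters, differed from the other lines by -1.69, -1.50 and -1.26, and none of these was called against mock. With the array labelled PLT1 replicate 3 included, GER3 (adjusted p = 0.0609), HSP17.6A (0.132), HSP17.4 (0.0974) and AGP30 (0.0572) were not called.

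**Figure D5:**
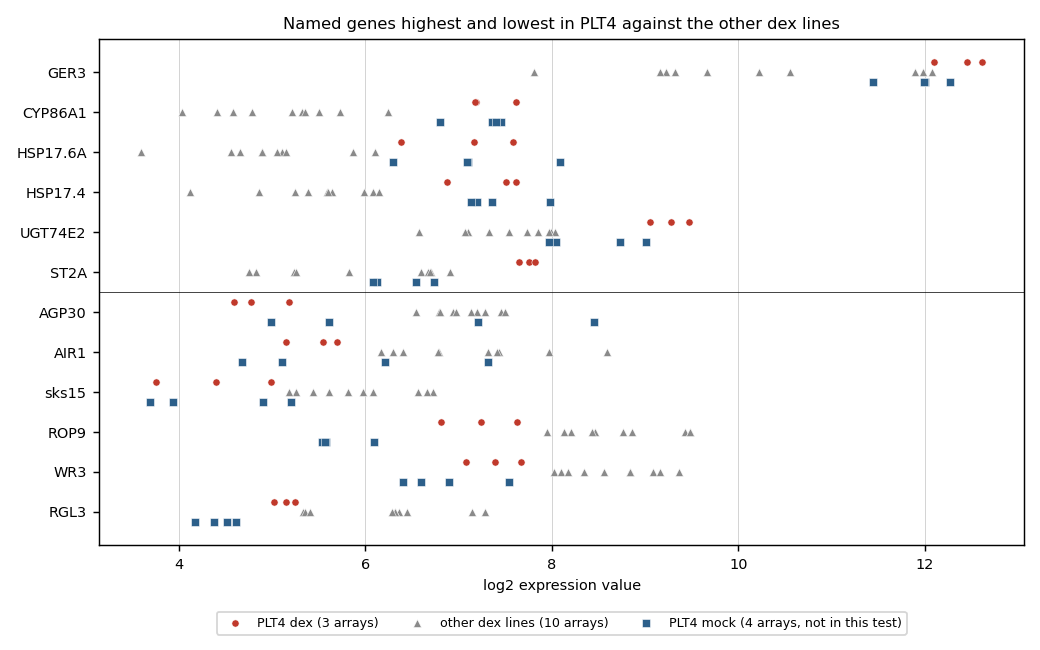
Log2 expression value of each array (horizontal axis) for the 6 named genes highest (above the line) and the 6 lowest (below the line) in PLT4 dex against the other dex lines, with PLT4 dex as circles, the 10 arrays of the other lines as triangles and PLT4 mock, which was not in this test, as squares. For GER3, CYP86A1, HSP17.6A and HSP17.4 the PLT4 mock arrays lie near the PLT4 dex arrays, and for ROP9 and RGL3 the PLT4 dex arrays lie between the PLT4 mock arrays and the arrays of the other lines.

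Suberin had 9 of 12 genes higher in PLT4 and 0 lower in this comparison (median 0.45), beside 8.20% higher and 6.44% lower over all probe sets, although 6 of the 12 were below PLT4 mock. With the array labelled PLT1 replicate 3 the number higher was 4. The comparison is with a mean of lines that differed among themselves. FAR1 was at 8.29 to 8.97 in PLT4 dex, 6.81 in both PLT1 arrays and 5.71 to 6.86 in PLT7. In PLT3 it was at 9.18 and 9.23, and in PLT5 at 8.96 to 9.36. ASFT overlapped PLT5, while CYP86A1 lay above every array of the other lines. Ribosome biogenesis had 12 of 19 higher and 0 lower at a median of 0.22, and the count was 3 without dex replicate 2, 8 without dex replicate 1 and 4 with the array labelled PLT1 replicate 3. DNA replication had 0 of 20 higher and 6 lower, with RNR2A lower by -0.59, and mitosis had 0 of 17 called. With the array labelled PLT1 replicate 3 the number of replication genes lower was 2. The root stem cell niche had 0 of 14 higher and 5 lower, and the number lower was 3 without dex replicate 3 or with the array labelled PLT1 replicate 3, and 2 without the PLT1 line. The clock list had 6 of 12 higher and 0 lower, and the number higher was 3 without dex replicate 2, 4 without dex replicate 1 and 1 with the array labelled PLT1 replicate 3. Auxin response genes had 11 of 29 higher and 3 lower, with 1 lower without dex replicate 3, and 5 higher and 0 lower with the array labelled PLT1 replicate 3. Photosynthesis had 0 of 15 called and the aquaporins had 3 of 14 higher and 3 lower. For the aquaporins these were 0 higher and 6 lower without the PLT1 line, and 0 higher and 1 lower with the array labelled PLT1 replicate 3.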

How the data were processed

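RNA of whole seedlings was hybridised to single-colour arrays. The deposited table holds log2 values, 1 column per array, and RMA and limma 3.24.15 are named per the submitters' processing notes, with no role or order given. Of 21494 rows, 64 control rows served only to look at RNA quality. Among 21430 probe sets, 21231 were given names through a TAIR10.1 table, and 221 had values identical to another probe set. No genome build is named, so no coordinates are given.

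Samples were grouped by their titles. The main fit used limma 3.58.1 (R 4.3.3) on the 7 PLT4 arrays with no covariate. The comparison with the other lines used 13 dex arrays. Both were adjusted over 21430 probe sets, with a threshold of 0.05, and were run on simulated data with 100 changed probe sets of each size. The fit against mock recovered 85% of changes of 1 on the log2 scale and 42% of changes of 0.5. The fit against the other lines recovered 99% and 83%. Far fewer probe sets changed in the simulation than were called here, so these shares need not hold for the arrays. Deviations of same-numbered dex and mock arrays correlated at 0.08, -0.02 and 0.24, so the numbers were not taken as pairs.

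The members and the 31 gene lists (473 genes, 437 measured) were chosen with earlier results of these data known. The rule for named genes took the 8 PLT/AIL genes, the 12 reported targets, the 12 largest non-overlapping rises and falls with a symbol (BBM left out), up to 4 called members per list, with up to 2 uncalled where fewer passed, the 6 highest and 6 lowest against the other lines, and all markers. Loci without a symbol past 8-fold were named after their values were seen.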

Additional observations from a re-analysis of the deposited data

Results flagged for a closer look

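Among 166 named genes, 7 had 1 of the 4 mock arrays far from the other three, measured as the gap to its nearest neighbour divided by the range of the 4. Chance flags about 5% of groups, and 7 of 166 is no more than that. In mock replicate 4, AGL15 stood apart at 3.47 against 3.70 to 3.74 (0.859), BDG1 at 8.22 against 8.49 to 8.52 (0.899), CYP86A1 at 6.80 against 7.36 to 7.46 (0.842) and ROP9 at 6.10 against 5.54 to 5.58 (0.919). In mock replicate 3, BGAL4 stood apart at 8.06 against 9.15 to 9.21 (0.952) and LAX3 at 8.02 against 8.24 to 8.27 (0.865). In mock replicate 1, AIL6 stood apart at 4.59 against 4.73 to 4.76 (0.851).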

How the results depend on the processing

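The number of probe sets called between PLT4 dex and PLT4 mock was 7314, and with a 2-fold minimum 1133. It was 5649 to 7468 with 1 array left out, 7279 with the replicate number as a block (where GIF3 had an adjusted p of 0.0639 and EXPA7 0.0128), 7224 with all 18 arrays in the fit, 7944 with array weights and 7327 with trend and robust variance. Median centring gave 4022 higher and 3308 lower. Against the other lines, 3138 were called, 1025 with the array labelled PLT1 replicate 3, and 2235 to 2396 with 1 PLT4 dex array left out. No difference of a named gene reversed its call. Trend and robust variance ended the calls for CRA1 (adjusted p = 0.0612) and OLEO2 (0.121), leaving 1 seed storage gene lower, and gave 9 photosynthesis genes lower. The number of arrays limits small differences, and low values are compressed.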

Other observations

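Of 78 probe sets of mitochondrial genes, 3 were called higher and 0 lower in PLT4 dex against PLT4 mock (limma adjusted p under 0.05, with no fold minimum). Over all probe sets 17.9% were called higher and 16.2% lower, so mitochondrial genes were called less often than probe sets in general.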
